A study of Homo sapiens with 8 samples.

Results

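H3K4me3 regions without H3K4me1 are stretches of chromatin listed as carrying trimethylated lysine 4 of histone H3 and not listed as carrying the monomethylated form. They were selected on measured values, as the H3K4me3 regions of unstimulated T47D-MTVL cells that were under 2000 bp wide, lay outside the mitochondrial genome and overlapped no H3K4me1 region by 1 bp or more. There were 5985 of them among 22593 H3K4me3 regions (26.5%), and they made up 27.0% of the 22156 nuclear H3K4me3 regions under 2000 bp. They are called H3K4me3-only regions here, and they are set against the other 16171 H3K4me3 regions under 2000 bp, which overlapped H3K4me1. Width and H3K4me1 overlap chose the regions, so both are given as a description.

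The study mapped the progesterone receptor (PR) and chromatin marks by chromatin immunoprecipitation and sequencing in T47D-MTVL, a human breast cancer cell line. PR sites were listed after 0, 5, 30, 60 and 360 min of 10 nM R5020, a synthetic progestin. H3K4me3, H3K4me1 and RNA polymerase II regions came from unstimulated cells. All cells had first been kept for 48 h with charcoal-treated serum and for 1 day without serum. Each of the 8 groups held 1 sample of this 1 line, so differences stand without replicates and no test was made. Shares carry exact (Clopper-Pearson) 95% intervals, which cover counting error over the regions of 1 library only. The intervals treat regions as independent, although many lie within 1 kb of another, as given below, and can share PR sites. They may therefore be too narrow. Read depth was not given in the sources used here, and a region missing from a list is not known to be free of the mark.

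H3K4me3 is deposited around the start sites of active genes, and its width tends to follow the activity of the promoter. H3K4me1 is typical of enhancers and of the flanks of promoters, where it often lies on either side of an H3K4me3 core. RNA polymerase II at an H3K4me3 region marks a promoter engaged by the transcription machinery. PR is a ligand-activated transcription factor that, in mammary cells, binds mostly away from promoters, at enhancers.

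Divided by width and polymerase, most H3K4me3-only regions were either wide with polymerase or narrow without it. Of the 5985 regions, 2946 (49.2%, 95% interval 47.9 to 50.5) were 400 bp or wider and overlapped RNA polymerase II, with a median width of 823 bp. Another 1683 (28.1%, 27.0 to 29.3) were under 400 bp and overlapped no polymerase region, with a median width of 264 bp. The mixed kinds were smaller. There were 579 narrow regions with polymerase (9.67%) and 777 wider ones without it (13%). The 400 bp bound was chosen after the widths had been seen. This division is not particular to the H3K4me3-only regions. The H3K4me1-overlapping regions were also wider with polymerase than without it, as given below. Polymerase overlapped 36.3% of those under 300 bp and 92.5% of those of 1500 to 2000 bp. Across 5 groups by read density, given below, narrow regions without polymerase made up 10.3% to 23.2% of the H3K4me1-overlapping regions. They made up 11.4% to 83.5% of the H3K4me3-only regions.

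In width the H3K4me3-only regions ran between 152 and 1981 bp, with a median of 529 bp and quartiles of 294 and 861 bp. The H3K4me1-overlapping regions had a median of 658 bp and quartiles of 392 and 995 bp. The narrow end set them apart, since 26.0% of the H3K4me3-only regions and 14.2% of the H3K4me1-overlapping regions were under 300 bp. In total the H3K4me3-only regions covered 3.73 Mb and the H3K4me1-overlapping regions 11.9 Mb.

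At the width limit, the widest H3K4me3-only regions measured 1981 bp (chr2:86849341-86851322), 1980 bp (chr12:14922071-14924051) and 1980 bp (chr4:18021816-18023796), in hg19 coordinates as listed. The first 3 regions without H3K4me1 beyond the limit measured 2018, 2028 and 2041 bp. In all, 36 of the 434 nuclear H3K4me3 regions of 2000 bp or more overlapped no H3K4me1 region. At the other bound, 4 H3K4me3-only regions touched an H3K4me1 region with a gap of 0 bp, one of them at chr5:134181574-134182612. The shortest overlap among the H3K4me1-overlapping regions was 1 bp, but few lay near that bound. Of them, 1.82% overlapped H3K4me1 by 1 to 100 bp, and 86.5% lay wholly inside an H3K4me1 region.

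The H3K4me3-only regions were not uniformly remote from H3K4me1. The gap to the nearest H3K4me1 region had a median of 13486 bp, quartiles of 1095 and 63538 bp and a maximum of 2526806 bp. It was at most 1 kb for 1453 regions (24.3%) and over 100 kb for 1012 regions (16.9%). The arrangement in which H3K4me1 lies on both sides within 2 kb was found at 401 regions (6.7%), a further 1404 (23.5%) had it on 1 side, and 4180 (69.8%) had none that close. Many had a further H3K4me3 region close by. Another H3K4me3 region lay within 1 kb of 53.2% of the H3K4me3-only regions (51.9 to 54.5) and of 59.7% of the H3K4me1-overlapping regions (59.0 to 60.5). For 25.6% of the H3K4me3-only regions with such a neighbour, a neighbour overlapped H3K4me1. Of the narrow regions without polymerase, 20.9% had an H3K4me3 neighbour within 1 kb, against 64.1% of the wide regions with polymerase.

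RNA polymerase II overlapped 3525 of the 5985 H3K4me3-only regions (58.9%, 57.6 to 60.1) and 11206 of the 16171 H3K4me1-overlapping regions (69.3%, 68.6 to 70.0). Over all nuclear H3K4me3 regions under 2000 bp the share was 66.5%. Where polymerase was present, it covered a median of 55.0% of an H3K4me3-only region and 67.1% of an H3K4me1-overlapping region. Overlap with more than 1 polymerase region was seen at 4.73% of the H3K4me3-only regions and 10.2% of the H3K4me1-overlapping regions. No polymerase region lay within 10 kb of 27.3% of the H3K4me3-only regions (26.1 to 28.4), against 17.0% of the H3K4me1-overlapping regions (16.5 to 17.6).

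Width divided the H3K4me3-only regions by polymerase. Those with polymerase had a median width of 740 bp and those without it 294 bp. Among H3K4me1-overlapping regions the medians were 792.5 and 410 bp. Under 300 bp, polymerase overlapped 17.3% of the H3K4me3-only regions (15.4 to 19.3) and 36.3% of the H3K4me1-overlapping regions (34.4 to 38.3). Between 300 and 400 bp the shares were 43.9% and 51.0%. From 400 bp upward the shares lay close together, the H3K4me3-only regions being slightly higher in each width group but that of 1000 to 1500 bp. Polymerase overlapped 64.6% of the H3K4me3-only and 61.9% of the H3K4me1-overlapping regions of 400 to 600 bp, and 77.9% and 74.4% of those of 600 to 800 bp. Between 1500 and 2000 bp the shares were 95.1% (91.0 to 97.8) and 92.5% (90.6 to 94.0). In these wider groups the intervals of the H3K4me3-only and H3K4me1-overlapping regions overlapped. Pooled over the genome, the lower polymerase share was thus found among the narrow regions, while groups by read density also showed it among wide ones. When the H3K4me1-overlapping regions were weighted to the widths of the H3K4me3-only regions, their polymerase share was 63.4%, and when weighted by chromosome and width it was 61.1%.

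**Figure D1:**
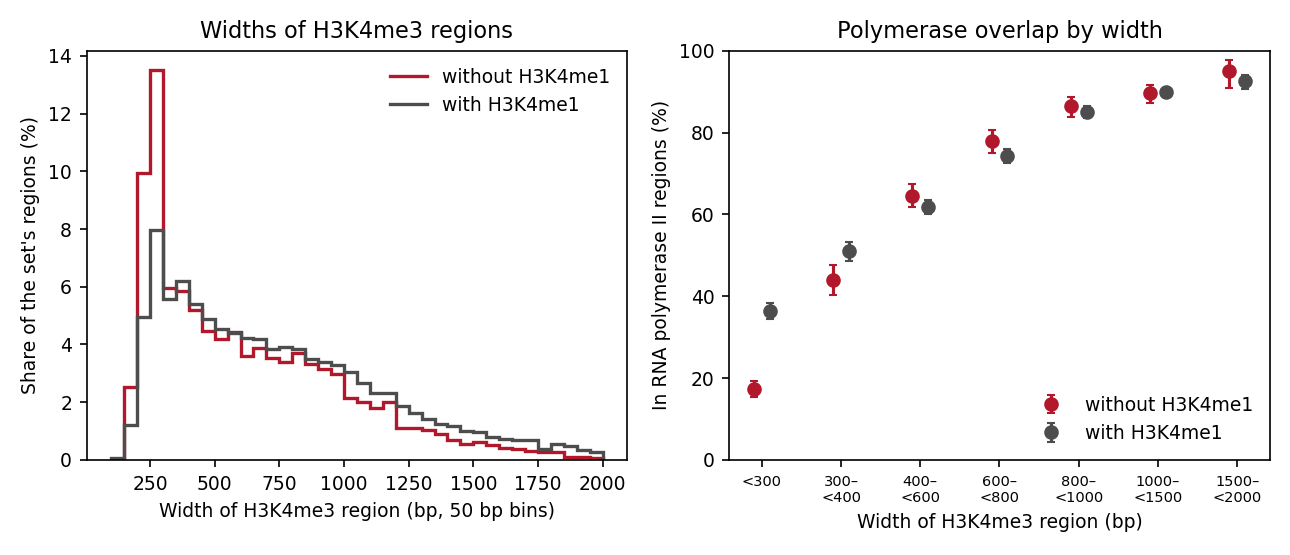
Left, width of H3K4me3 regions under 2000 bp in 50 bp bins, as a share of each set, for the 5985 regions without H3K4me1 and the 16171 with it. Right, share of each set that overlapped RNA polymerase II by width group, with exact 95% intervals over regions of 1 library. Under 300 bp polymerase overlapped 17.3% of the regions without H3K4me1 and 36.3% of those with it, while from 400 bp upward the shares lay close together.

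PR sites were rarely inside H3K4me3-only regions at any time. Before hormone, 8 of the 5985 regions held a PR site (0.134%, 0.0577 to 0.263). With R5020 the number was 151 at 5 min (2.52%), 189 at 30 min (3.16%), 204 at 60 min (3.41%) and 163 at 360 min (2.72%). Over all nuclear H3K4me3 regions under 2000 bp the shares were 0.415% at 0 min, 4.26% at 5 min, 4.65% at 30 min, 5.25% at 60 min and 4.09% after 360 min. The H3K4me3-only regions were thus below the whole at each of the 5 times. At 60 min, when both sets were at their highest, a PR site lay inside 3.41% of the H3K4me3-only regions (2.96 to 3.9) and 5.93% of the H3K4me1-overlapping regions (5.57 to 6.31).

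Seen from the receptor, H3K4me3-only regions received a small share of binding, on 3.73 Mb of sequence. They overlapped 8 of 844 PR sites before hormone (0.948%), then 0.636% of 22973 sites at 5 min, 0.7% of 25872 at 30 min, 0.798% of 24436 at 60 min and 0.667% of 23841 after 360 min. At 60 min the H3K4me1-overlapping regions overlapped 3.92% of the sites. Per Mb of sequence covered, this was 52.2 sites for H3K4me3-only and 80.5 for H3K4me1-overlapping regions. These counts take any site that shares 1 bp. Counted by midpoints, there were 43.4 per Mb inside H3K4me3-only regions and 8.05 per Mb over all listed sequence. The small share thus does not mean sparse binding. The PR lists differ in length by the time with hormone, and how much of that lies in depth or threshold was not tested.

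Within 10 kb, PR sites were common once hormone was present. Before hormone, 36 H3K4me3-only regions had a PR site within 10 kb (0.602%, 0.422 to 0.832). With R5020 this held for 1081 regions at 5 min (18.1%), 1273 at 30 min (21.3%), 1264 at 60 min (21.1%) and 1176 after 360 min (19.6%). The share at 5 min (interval 17.1 to 19.1) was below that at 30 min (20.2 to 22.3). The 30 min list was also longer, with 25872 sites against 22973. The intervals cover regions of 1 library per time, so this order of times was not tested. Most of the difference from 0 min was present by 5 min. Over all nuclear H3K4me3 regions under 2000 bp the shares were 2.18% at 0 min, 26.2% at 5 min, 29.0% at 30 min, 29.3% at 60 min and 28.5% after 360 min. The H3K4me3-only regions were again below the whole at each time. At 60 min a PR site lay within 10 kb of 21.1% of the H3K4me3-only regions (20.1 to 22.2) and 32.4% of the H3K4me1-overlapping regions (31.7 to 33.1). The 5 PR lists were set against the same chromatin lists, so the 5 times are not independent of each other.

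**Figure D2:**
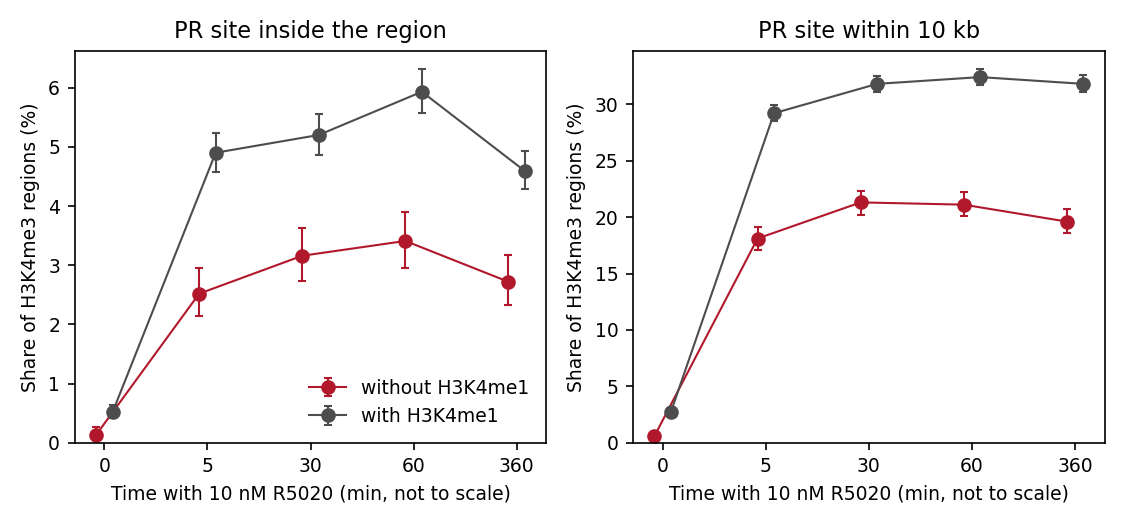
Share of H3K4me3 regions with a PR site inside (left) and within 10 kb (right) by minutes of R5020, for regions without and with H3K4me1, with exact 95% intervals over regions of 1 library per time. Regions without H3K4me1 lie below those with it at each time, for example 3.41% against 5.93% inside and 21.1% against 32.4% within 10 kb at 60 min.

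The difference near PR sites was also present at equal width and chromosome. H3K4me1-overlapping regions weighted to the chromosomes and widths of the H3K4me3-only regions had a PR site within 10 kb in 31.1% of cases at 60 min, against 21.1% of the H3K4me3-only regions. For a PR site inside, the weighted share at 60 min was 5.32%, against 3.41%. Chromosome by chromosome, the H3K4me3-only regions had the lower share within 10 kb at 60 min on 23 of 23 chromosomes. The share inside was lower on 20 of 23, from few regions on some of them, such as 1 on chromosome 21 and 3 on 20. Groups by read density, given below, did not all show the lower share inside. The wider H3K4me3-only regions held PR more often. At 60 min 10.3% of those of 1500 to 2000 bp contained a site (6.3 to 15.6), as did 12.3% of the H3K4me1-overlapping regions of that width (10.2 to 14.5), while under 300 bp the shares were 1.03% (0.589 to 1.66) and 4.49% (3.68 to 5.41).

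PR binding was densest inside the H3K4me3-only regions and thinned with distance. At 60 min there were 43.4 PR site midpoints per Mb inside them, 23.5 per Mb in the first 1 kb outside, 18 per Mb at 1 to 2 kb, 12.6 per Mb at 2 to 5 kb and 11.2 per Mb at 5 to 10 kb. The H3K4me1-overlapping regions showed the same order at higher levels, with 61.1 per Mb inside and 19.4 per Mb at 5 to 10 kb. Over all listed sequence the density was 8.05 per Mb. Before hormone, density inside H3K4me3-only regions was 1.87 per Mb, from 7 midpoints. Outside, it was 0.418 per Mb in the first 1 kb, 0.167 to 0.251 between 1 and 10 kb and 0.326 at 10 to 20 kb. These values lay on either side of the 0.278 per Mb of all listed sequence. From the region outward, the rings held only 5, 2, 9, 14 and 39 midpoints. The nearest PR site at 60 min was a median of 43.4 kb from an H3K4me3-only region and 25.2 kb from an H3K4me1-overlapping region.

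**Figure D3:**
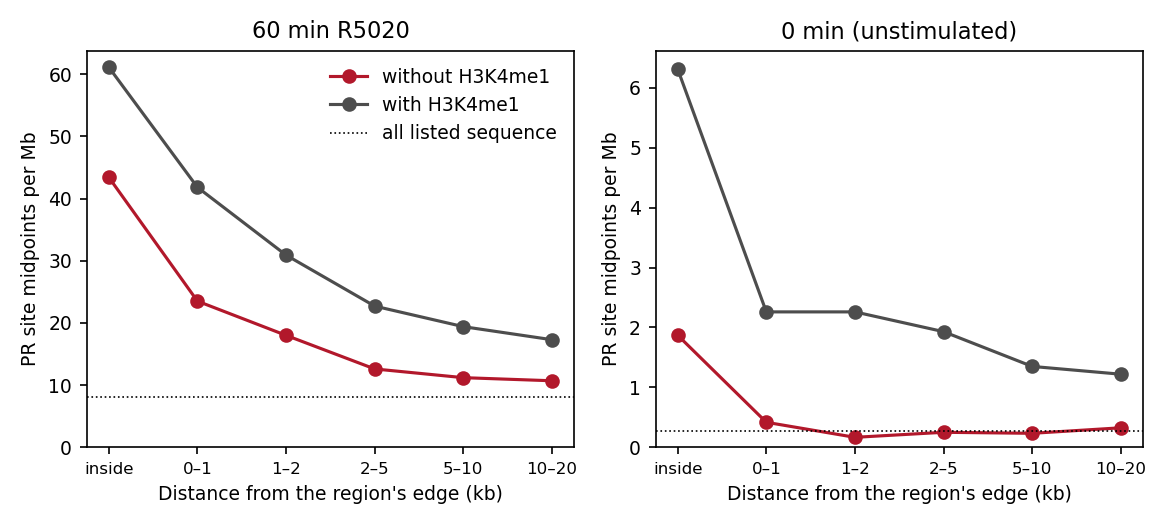
PR site midpoints per Mb inside H3K4me3 regions and in rings of distance from their edges, at 60 min of R5020 (left) and at 0 min (right, other vertical scale), for regions without and with H3K4me1. The dotted line is the density over all listed sequence. At 60 min density around regions without H3K4me1 was 43.4 per Mb inside and 11.2 per Mb at 5 to 10 kb, and at 0 min it was near the dotted line outside the regions.

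The PR sites near H3K4me3-only regions less often lay in H3K4me1 themselves. Of the 1112 PR sites at 60 min within 10 kb of an H3K4me3-only region but outside it, 44.6% overlapped H3K4me1 (41.7 to 47.6), against 75.1% of the 3928 sites placed likewise around H3K4me1-overlapping regions (73.7 to 76.4) and 48.2% of all PR sites. Since the H3K4me1-overlapping regions were defined by H3K4me1 at their own place, this difference in their surroundings is a description. Among the H3K4me3-only regions, those with H3K4me1 close by had PR close by more often. A PR site lay within 10 kb at 60 min for 39.2% of those flanked by H3K4me1 within 2 kb on both sides (34.3 to 44.1), 28.6% of those flanked on 1 side (26.3 to 31.1) and 16.9% of those with none (15.7 to 18). By gap, the share was 29.9% within 1 kb of H3K4me1, 29.1% at 1 to 10 kb, 14.3% at 10 to 100 kb and 13% beyond 100 kb. PR inside the region varied less with the gap, at 4.34%, 3.45%, 2.84% and 3.26% in the same order, and these intervals overlapped.

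Polymerase went with PR inside an H3K4me3-only region at 60 min, while the shares with PR within 10 kb lay close together. At 60 min a PR site was inside 163 of 3525 H3K4me3-only regions with polymerase (4.62%, 3.95 to 5.37) and 41 of 2460 without it (1.67%, 1.2 to 2.25). Within 10 kb, sites inside included, the shares were 21.5% (20.2 to 22.9) with polymerase and 20.5% (18.9 to 22.2) without it. In the same order they were 17.6% and 18.8% at 5 min, 21.3% and 21.3% at 30 min, and 19.9% and 19.3% after 360 min. Regions with polymerase were wider, as given above. Before hormone the share within 10 kb was higher without polymerase. PR lay that close to 30 of the 2460 regions without polymerase (1.22%) and 6 of the 3525 with it (0.17%). The H3K4me1-overlapping regions showed the same directions at 0 and 60 min, but their 60 min shares within 10 kb had separate intervals. At 60 min PR was inside 6.76% of those with polymerase and 4.05% of those without it. It lay within 10 kb of 33.4% (32.5 to 34.2) and 30.2% (28.9 to 31.4). At 0 min PR lay within 10 kb of 2.18% and 4.07% of them. These 0 min cases were concentrated by read density, in groups given below. The group with the most reads held 20 of the 36 H3K4me3-only regions and 281 of the 446 H3K4me1-overlapping regions concerned. In that group 5.5% of all H3K4me3-only regions and 63.8% of all H3K4me1-overlapping regions overlapped polymerase. The part of read density in the 0 min order was not tested.

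Binding inside H3K4me3-only regions was partly lasting. A PR site was inside 292 of them at 1 time or more. At all 4 times with R5020 it was inside 85 regions, which had a median width of 842 bp and of which 82.4% overlapped polymerase, beside 86.4% of all H3K4me3-only regions of 800 to 1000 bp. Counted over the 287 regions with PR inside at any time with hormone, that is 29.6% (24.4 to 35.3), and for the H3K4me1-overlapping regions it was 33.0% (30.5 to 35.6). Another 31.7% of the 287 were listed at 1 of the 4 times, as were 31.7% of the 1330 H3K4me1-overlapping regions with PR inside. Of the 204 regions with PR inside at 60 min, 54.4% also had it at 5 min, 74.5% at 30 min and 63.2% at 360 min. Within 10 kb, 34.2% of the 1855 H3K4me3-only regions with PR at any time with hormone had it at all 4 times (32.0 to 36.4), against 42.7% of the 7289 H3K4me1-overlapping regions (41.6 to 43.9).

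Single regions show the arrangement. The widest H3K4me3-only region with PR inside at all 4 hormone times was chr2:39346820-39348645, 1825 bp wide, with 72.8% of its width in polymerase and H3K4me1 1561 bp away. It held 1 PR site at 5, 30, 60 and 360 min, had no other within 10 kb, and lay 27666978 bp from the nearest PR site before hormone. At chr12:116713331-116715095, 1764 bp wide and 232 bp from H3K4me1, 1 site inside was joined by others to make 5, 5, 3 and 3 sites within 10 kb at 5, 30, 60 and 360 min. At chr1:113933058-113934645, 1587 bp wide, the nearest H3K4me1 was 105003 bp away, and PR was inside at each hormone time all the same. The 10 widest regions of this lasting kind all overlapped polymerase, as did 95.1% of all H3K4me3-only regions of 1500 to 2000 bp.

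Among the 10 widest H3K4me3-only regions 8 overlapped polymerase, and 1 held a PR site at 60 min. That region, chr2:86849341-86851322, had 3 PR sites within 10 kb at 60 min and no site inside it at 0, 5, 30 or 360 min. One of those without polymerase, chr4:18021816-18023796, was 1980 bp wide and lay 209349 bp from the nearest polymerase region and 170537 bp from H3K4me1. The most PR sites within 10 kb of an H3K4me3-only region at 60 min was 7, at a 481 bp region on chromosome 8 that had 0, 9, 8, 7 and 8 such sites at 0, 5, 30, 60 and 360 min and none inside. At 60 min 2 regions on chromosome 11 followed with 6 sites each, one of 240 bp at chr11:65193438-65193678 and one of 275 bp at chr11:65266941-65267216. The 275 bp region had 0, 5, 4, 6 and 6 sites at the 5 times and lay 410 bp from H3K4me1 and 273 bp from polymerase.

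The 8 H3K4me3-only regions with PR inside before hormone were mostly narrow. They were 1153, 674, 355, 324, 302, 274, 273 and 162 bp wide, and 2 of them overlapped polymerase. At 2 of the 8, a PR site was listed inside at all 5 times. One was chr6:130030995-130031669, with polymerase over 79.4% of its 674 bp. The other was chr17:22020562-22020864, without polymerase. Its PR site stood out in the authors' deposited table with 1905 normalized MNase reads over 134 bp in unstimulated cells and 834 with R5020. Over all sites of the authors' deposited table the medians were 97 and 75 reads, at a median width of 313 bp. Whether so many reads at this place also led to its listing at all 5 times was not tested. At 5 of the 8 the 0 min site was the only PR binding listed inside.

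Chromosomes differed widely in how many of their H3K4me3 regions lacked H3K4me1. The share of H3K4me3-only regions among nuclear H3K4me3 regions under 2000 bp was 72.0% on X (67.9 to 75.9), 57.1% on chromosome 4, 51.5% on 2, 51.1% on 18 and 45.5% on 13. It was lowest on 17 at 11% (9.44 to 12.8), on 16 at 12.1% and on 15 at 13.7%. Per Mb of listed sequence, H3K4me3-only regions ranged between 0.897 on chromosome 15 and 6.34 on chromosome 19, with 2.39 on X. The largest number, 650, lay on chromosome 2. The spread followed the H3K4me1 list, which held 3.83 regions per Mb on X, 6.75 on 4, 7.15 on 18 and 59.3 on 17. Across 23 chromosomes, H3K4me1 regions per Mb and the share lacking H3K4me1 had a Pearson r of -0.81 and a Spearman rho of -0.73. These are descriptions, since the share was made from the same H3K4me1 list and all chromosomes share the libraries.

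The make-up of the H3K4me3-only regions changed with chromosome as well. Polymerase overlapped 80.5% of those on chromosome 19 (76.2 to 84.4), 78.7% on 18 and 77.2% on 2, but 31.1% on 8 (25.3 to 37.4), 31.1% on 12 (25.2 to 37.6) and 32.2% on 3 (27.6 to 37.0). Median widths followed, with 728.5 bp on 4 and 671 bp on 2, against 295 bp on 8 and 325 bp on 3. Polymerase was less frequent at H3K4me3-only than at H3K4me1-overlapping regions on 17 chromosomes and more frequent on 6. On chromosome 2 the shares were 77.2% and 59.3%, and on chromosome 12 they were 31.1% and 71.2%. Before hormone, 13 of the 36 H3K4me3-only regions with PR within 10 kb lay on chromosome 3, which held 26.4% of the 0 min PR sites, and 6 lay on chromosome 17. Without these 2 chromosomes, 17 of 5427 H3K4me3-only regions (0.313%, 0.183 to 0.501) and 278 of 13468 H3K4me1-overlapping regions (2.06%, 1.83 to 2.32) had PR within 10 kb at 0 min.

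By position, H3K4me3-only regions were spread over 1905 bins of 1 Mb, of which 605 held 1 region and 60 held 10 or more. Of the 1532 bins with 5 or more H3K4me3 regions under 2000 bp, 57 held H3K4me3-only regions alone, 433 in number, and 18 of these bins were on X. Another 229 of the 1532 held none. Regions within 1 kb of each other count singly in these bins. No H3K4me1 region started in 11 of the 57 bins. The fullest bin, between 153 and 154 Mb of X, held 24 H3K4me3-only regions of 24 H3K4me3 regions, 16 with polymerase, beside 3 H3K4me1 regions. The bin between 23 and 24 Mb of chromosome 14 held 23 of 23, 16 with polymerase, beside 1 H3K4me1 region. These bins were chosen after their counts had been seen.

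The density of MNase reads moved with these differences between chromosomes. MNase cuts DNA between nucleosomes, and the authors' deposited table gives normalized MNase reads at each 60 min PR site. How the reads were normalized was not given in the sources used here, so over whole chromosomes and regions their density cannot be told apart from the number of DNA copies the line carries, and it is used here as a read density and not as a measure of nucleosomes. Per chromosome, the median of the authors' deposited table in unstimulated cells was lowest on X, at 16.4 reads per 100 bp, and next lowest on 18 (20.2), 2 (20.6) and 4 (20.7), where the share of H3K4me3-only regions was over 50%. By the authors' deposited table, chromosomes 19 (22.4) and 22 (22.6) also had few reads but lower shares, 28.1% and 25.5%, while 13 had 23 reads and a share of 45.5%. In the authors' deposited table it was highest on 17, at 39.6, followed by 38.7 on 12, 38.5 on 3 and 37.3 on 8. Over 23 chromosomes the median from the authors' deposited table had an r of -0.82 (rho -0.75) with the share of H3K4me3 regions lacking H3K4me1. It had an r of 0.83 (rho 0.82) with H3K4me1 regions per Mb, and an r of 0.91 (rho 0.93) with the share of H3K4me3-only regions that were under 400 bp without polymerase. These coefficients describe 23 chromosomes of the same libraries and carry no test.

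**Figure D4:**
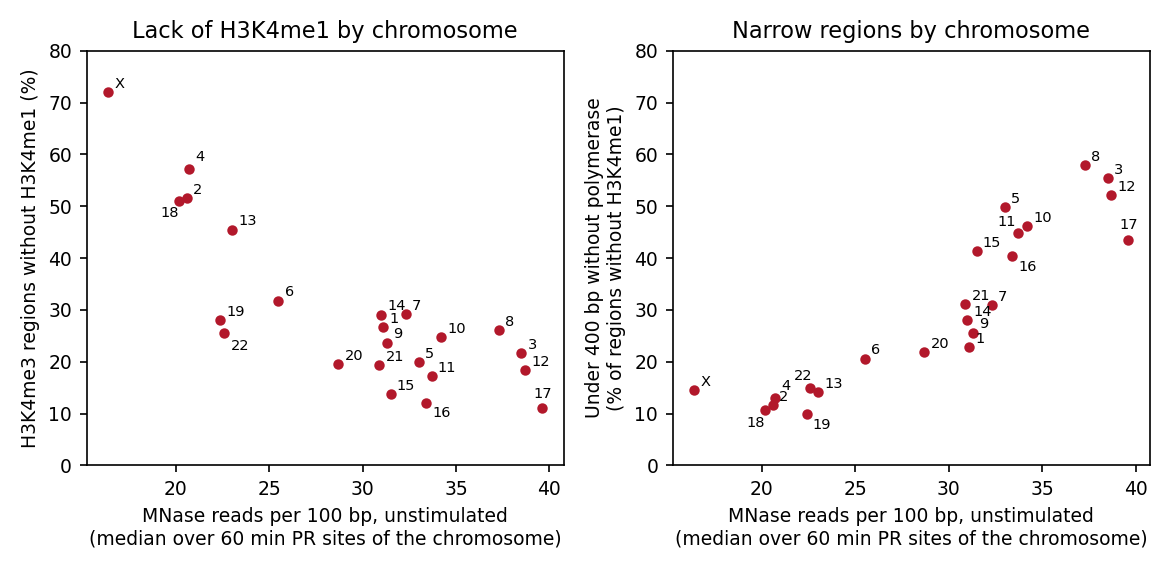
Each point is 1 of 23 chromosomes. The horizontal axis is the median number of normalized MNase reads per 100 bp at its 60 min PR sites in unstimulated cells, from the authors' deposited table. Left, the share of H3K4me3 regions under 2000 bp without H3K4me1, which was 72.0% on X and 11% on 17. Right, the share of regions without H3K4me1 that were under 400 bp and without polymerase, which was 9.87% on 19 and 58.0% on 8.

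Read density was also taken region by region. Each H3K4me3 region under 2000 bp was given the median unstimulated MNase reads per 100 bp, from the authors' deposited table, of the 60 min PR sites within 1 Mb, where there were 3 or more. This placed 5796 of the 5985 H3K4me3-only regions, and the 21811 placed H3K4me3 regions were cut into 5 equal groups after the chromosome values had been seen. In the group with the fewest reads, H3K4me3-only regions made up 54.9% of H3K4me3 regions (53.4 to 56.4), followed by 35.3%, 16.6%, 13.9% and, in the group with the most reads, 12.1% (11.1 to 13.1).

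These 5 groups pool the chromosomes, so each chromosome was also divided at the median read density of its own H3K4me3 regions, from the authors' deposited table. The share of H3K4me3-only regions was higher in the part with fewer reads on 22 of 23 chromosomes, 18 being the exception. On chromosome 9 it was 41.5% in the part with fewer reads and 5.33% in the part with more, and on chromosome 2 it was 55.2% and 49.0%. Polymerase overlapped H3K4me3-only regions more often in the part with fewer reads on 20 of 23 chromosomes, all but 2, 13 and X. On chromosome 3 it overlapped 49.8% of the 255 H3K4me3-only regions in the part with fewer reads and 0 of the 145 in the part with more.

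The mix of wide and narrow H3K4me3-only regions shifted across the groups. The 2 groups with the fewest reads held 85.0% of the placed regions of 400 bp or more with polymerase (83.7 to 86.3) and 28.6% of those under 400 bp without it (26.4 to 30.8). The 2 groups with the most reads held 4.39% and 53.9% of these kinds. In the group with the fewest reads 72.5% of the 2397 H3K4me3-only regions overlapped polymerase (70.6 to 74.2), with a median width of 656 bp, and this was above the 61.6% of the H3K4me1-overlapping regions (59.5 to 63.8). In the group with the most reads 5.5% of the 527 H3K4me3-only regions overlapped polymerase (3.72 to 7.81), with a median width of 271 bp, against 63.8% of the H3K4me1-overlapping regions (62.2 to 65.3). There 440 of the 527 H3K4me3-only regions (83.5%) were under 400 bp and without polymerase, against 23.2% of the H3K4me1-overlapping regions (21.9 to 24.6). In the group with the fewest reads this kind made up 11.4% of the H3K4me3-only and 13.1% of the H3K4me1-overlapping regions. Among regions of 400 bp or more, polymerase overlapped 79.0% of the H3K4me3-only (77.1 to 80.9) and 67.6% of the H3K4me1-overlapping regions (65.2 to 70.0) in the group with the fewest reads. In that with the most it overlapped 22 of 80 wide H3K4me3-only regions (27.5%, 18.1 to 38.6) and 80.1% of the wide H3K4me1-overlapping regions (78.5 to 81.7). Over all placed regions polymerase overlapped 59.2% of the H3K4me3-only regions, and 60.7% of the H3K4me1-overlapping regions once these were weighted to the same read density groups and widths.

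The lower share of PR inside H3K4me3-only regions also varied with read density. At 60 min a PR site was inside 4.17% of the H3K4me3-only regions (3.41 to 5.05) and 3.61% of the H3K4me1-overlapping regions (2.83 to 4.53) in the group with the fewest reads, with overlapping intervals. In the second group the shares were 3.77% and 3.83%. In the group with the most reads they were 1.52% (0.658 to 2.97) and 8.19% (7.34 to 9.1). Weighted to the read density groups and widths of the H3K4me3-only regions, the H3K4me1-overlapping regions had PR inside in 4.26% of cases at 60 min, against 3.49% of the placed H3K4me3-only regions. For a PR site within 10 kb at 60 min, the H3K4me3-only regions were lower in each of the 5 groups, with 20.1% (18.5 to 21.7) against 24.6% (22.7 to 26.6) in the first and 23.9% (20.3 to 27.8) against 40.0% (38.4 to 41.5) in the last. The part of read density in these differences, and that of DNA copy number behind it, was not tested.

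**Figure D5:**
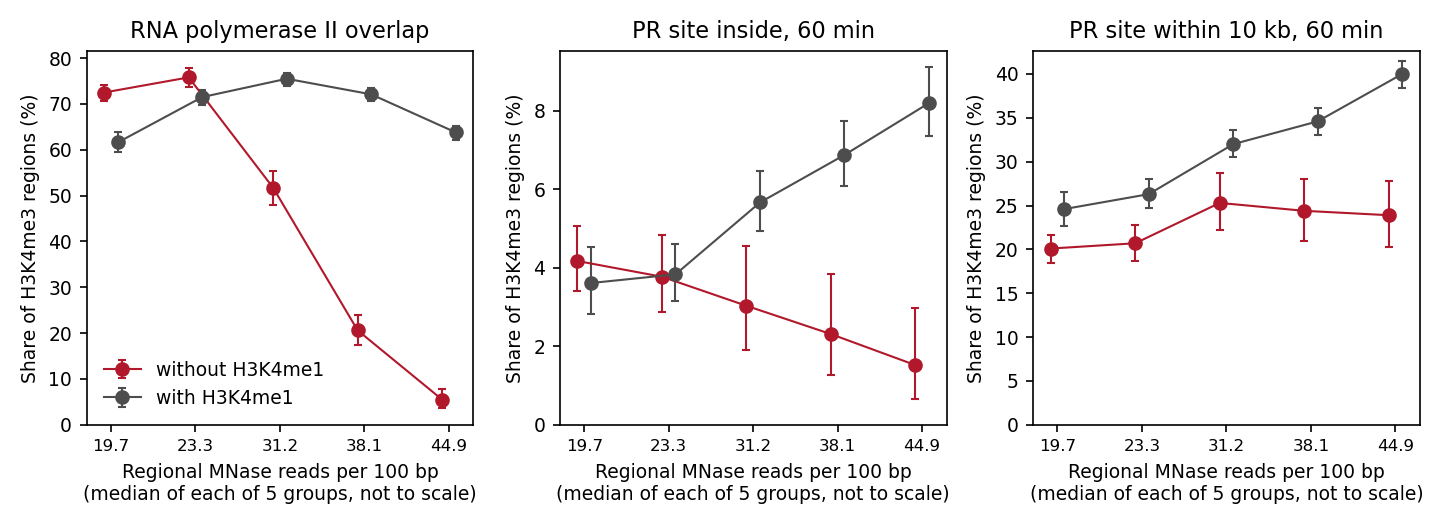
Share of H3K4me3 regions that overlapped polymerase (left), held a PR site at 60 min (middle) and had one within 10 kb at 60 min (right), in 5 equal groups by regional MNase read density in unstimulated cells from the authors' deposited table, with exact 95% intervals. Polymerase overlapped 72.5% of the regions without H3K4me1 in the group with the fewest reads and 5.5% in that with the most, against 61.6% and 63.8% of the regions with H3K4me1.

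Of the PR sites listed at 60 min, 195 overlapped H3K4me3-only regions, and the authors' deposited table gives MNase reads at each in unstimulated cells and, per the series' design text, after 60 min of R5020. In the authors' deposited table the ratio of unstimulated to R5020 reads, which is above 1 where reads were lower with hormone, had a median of 1.74 over the 194 sites inside H3K4me3-only regions that have a ratio (quartiles 1.29 and 2.5). The authors' deposited table gave a median ratio of 2.02 for sites inside H3K4me1-overlapping regions (quartiles 1.52 and 2.87) and 1.28 for sites in no H3K4me3 region. MNase reads were thus lower with R5020 at most PR sites of either H3K4me3 set. In the authors' deposited table the ratio exceeded 2 at 37.6% of the sites inside H3K4me3-only regions (30.8 to 44.9), at 50.4% of those inside H3K4me1-overlapping regions (47.1 to 53.6) and at 11.1% of sites in no H3K4me3 region (10.7 to 11.5).

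Polymerase at the PR site went with a higher ratio in both sets. For sites inside H3K4me3-only regions the authors' deposited table gave a median ratio of 2.0 where the site also overlapped polymerase and 1.42 where it did not. At sites inside H3K4me1-overlapping regions the authors' deposited table gave 2.27 with polymerase and 1.61 without it. The starting levels differed, with 25.9 reads per 100 bp in unstimulated cells inside H3K4me3-only regions and 40.1 inside H3K4me1-overlapping regions, and with R5020 14.2 and 21.1, all medians of the authors' deposited table. At the lasting site of chr4:37454836-37456485 the authors' deposited table lists 58 reads in unstimulated cells and 18 with R5020, a ratio of 3.22, and at that of chr11:102217256-102219037 it lists 65 and 67, a ratio of 0.97.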

How the data were processed

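The authors deposited 1 list per sample, holding chromosome, start and end of each region with no height, in hg19 according to the submitters' processing notes. Aligner, peak caller, thresholds, input and depth: not given in the sources used here. In the authors' deposited table of 60 min PR sites, normalized MNase reads were handled as a score because their normalization is not stated, and the deposited ratio is the unstimulated over the R5020 value.

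Regions overlapped where they shared 1 bp or more, and gaps ran between nearest edges. "Within 10 kb" includes sites inside. Shares carry exact Clopper-Pearson 95% intervals, and with 1 sample per group no test was made. Weighted shares used width groups of 50 bp (100 bp above 1000 bp, and 100 bp throughout with read density). The members of the set, the lists and the alternatives were chosen with earlier results of these data known. Named regions were the 10 widest, the widest with PR inside at all 4 hormone times (at most 10) or at 0 min (at most 5, of which the text gives all 8), the 5 with most PR sites nearby at 60 min, and those next to each bound, of which the text gives some. No genome or gene annotation on hg19 was used, so no gene or sequence was assigned to a region. The work was done with pandas 2.3.3, NumPy 2.4.6, Matplotlib 3.10.9 and SciPy 1.17.1 under Python 3.11.15, and the overlap code was checked on simulated lists.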

Additional observations from a re-analysis of the deposited data

How the results depend on the processing

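Of 54 alternative values, 17 stayed within the interval (for counts, within 1.5 times) of the reported one. Many alternatives shift the value by construction, such as 5 or 20 kb for 10 kb or the wider 50% of a list. The count is therefore no measure of stability. H3K4me3-only regions had the lower PR share in 30 of 30 comparisons made with other distances, the wider 50% of PR sites, 50% of the site inside or a 1 kb gap to H3K4me1. Their polymerase share was lower in 4 of 5, the exception being wide regions (85.6% against 85.0%). The comparisons reuse the same lists and regions, so they are not separate checks. The 1 kb gap took H3K4me3-only regions with more PR inside (4.34% at 60 min) out of that set alone. That step lowers the share by itself. Merging H3K4me3 regions within 500 bp left 3664 H3K4me3-only regions, 51.5% with polymerase and 18.3% with PR within 10 kb at 60 min. Polymerase overlapped 33.2% by 50% of the width, 40.9% with the wider polymerase regions, 68.9% within 1 kb, and 56.0% of regions over 1 kb from H3K4me1. With 50% of the PR site inside, 1.97%, 2.66%, 2.66% and 2.32% held PR at 5, 30, 60 and 360 min, and with the wider PR sites 1.19%, 1.49%, 1.52% and 1.32%. At 0, 5, 30, 60 and 360 min PR lay within 5 kb of 0.368%, 12.9%, 15.1%, 15.1% and 13.9%, within 20 kb of 1.12%, 27.7%, 31.8%, 31.7% and 30.2%, and, for the wider sites, within 10 kb of 0.301%, 9.71%, 11.9%, 11.5% and 10.8%. At least as wide as the median H3K4me3 region, 85.6% had polymerase and 5.37% PR inside at 60 min. In the 2 groups with the fewest MNase reads these were 73.8% and 4.01%, and in the 2 with the most 13.6% and 1.94%, with PR within 10 kb of 24.2%. By single read density group they were lower for PR inside in 4, 4, 3, 4 and 4 of 5 groups at 0, 5, 30, 60 and 360 min, for PR within 10 kb in 4, 5, 5, 5 and 5, and for polymerase in 3 of 5. Merging, the wide regions and the read density groups were chosen after seeing the data. No paired analysis was possible because each group holds 1 sample. Unknown depth limits what absence from a list means.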
